A study of Mus musculus with 6 samples.

Results

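Collagen chains are the genes whose symbols read Col, a type number, the letter a and a chain number. The deposited lung table holds 43 of them among 23284 gene symbols, and 31 of the 43 reached the mean of 0.5 FPKM (fragments mapped to a gene, per length of its transcript and per total mapped) that was required for testing. Because FPKM is scaled to length, levels of different chains are set side by side. Other technical differences between transcripts were not checked, so such comparisons are approximate. Which genes belong was set by name alone, but the set was chosen with earlier results of these data known. Whole lung was taken from 3 Fra-2 transgenic mice (Fra-2tg) and from 3 wild-type littermates (WT). All 6 mice were 6 weeks old and of the C57BL/6 background, and each library is 1 mouse. Fra-2 is the AP-1 transcription factor encoded by Fosl2. The labels name no promoter for the transgene. The study set out to find genes that differ between these genotypes.

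A collagen molecule is a rope of 3 chains wound around each other, and which chains join is fixed by the collagen type. Fibrillar collagens I, III and V build the load-bearing fibrils of airway and vessel walls and of the interstitium. Collagen IV builds the sheet-like network of basement membranes, where alveolar epithelium and capillary endothelium share a membrane. Collagen VI forms beaded microfibrils around cells, and the remaining types decorate fibrils, anchor membranes or span the cell surface. Some types are mixed trimers, so the levels of their chains bear on each other: collagen I takes 2 chains from Col1a1 and 1 from Col1a2, and collagen IV takes 2 from Col4a1 and 1 from Col4a2, or 1 each from Col4a3, Col4a4 and Col4a5. Steps after transcription were not measured.

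Several chains of 1 type lie beside each other in the genome. In the GENCODE annotation of GRCm38, the genes of collagen IV stand in head-to-head pairs. Col4a1 and Col4a2 (chromosome 8, 11198423 to 11312826 and 11312805 to 11449287) overlap by 22 bases at their starts. Col4a4 and Col4a3 on chromosome 1 start 71 bases apart, and Col4a6 and Col4a5 on the X chromosome 1308 bases apart. Col3a1 and Col5a2 lie tail to tail on chromosome 1 with 24614 bases between them. Col6a2 and Col6a1 lie on the same strand of chromosome 10 with 85161 bases between them. Exons of Col3a1, Col4a3, Col5a1, Col7a1, Col9a3, Col15a1 and Col20a1 overlap exons of other annotated genes, antisense genes included. So do exons of Col4a2, with a gene other than Col4a1, and of the untested Col6a4, Col6a6, Col10a1 and Col22a1. The labels do not say whether counting used the strand, so reads of these chains are less certain. Because Fra-2 belongs to AP-1, promoters were searched for the AP-1 letters TGACTCA and TGAGTCA, each the reverse complement of the other. RefSeq promoter windows (GRCm38.p6, 250 bases before to 50 after a start site) matched 35 of the 43 chains, and 1 of these, Col6a1, held the letters. Over all genes with a window the share was 5.95%. GENCODE starts Col6a1 upstream of the match, at 76726168 on the minus strand. There the stretch printed below around the match overlaps a Col6a1 exon. The GC box letters GGGCGG or CCGCCC were found for 22 of the 35 chains, against 38.2% of all genes. The CCAAT letters, read on both strands, were found for 13 chains (41.1% of all genes) and TATAAA, likewise on both strands, for 5 (15.7%). A match is a run of letters and not a shown binding site. The stretches printed next are the 22 bases shared by the Col4a1 and Col4a2 starts (chr8:11312805-11312826, plus strand), the Col6a1 match with 10 bases on each side (chr10:76726118-76726144, minus strand), and the 100 bases before the RefSeq start of 5 chains whose levels are set against each other further on. These are Col3a1 (chr1:45311438-45311537, plus strand), Col5a1 (chr2:27886325-27886424, plus), Col5a3 (chr9:20815068-20815167, minus), Col8a1 (chr16:57754738-57754837, minus) and Col8a2 (chr4:126286694-126286793, plus). Capitals mark any of the 4 motifs searched.
Col4a1 and Col4a2: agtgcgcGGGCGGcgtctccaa
Col6a1: gctgatgctgTGACTCActcagctttg
Col3a1: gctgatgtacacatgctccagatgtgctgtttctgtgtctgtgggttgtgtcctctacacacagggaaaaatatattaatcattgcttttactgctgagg
Col5a1: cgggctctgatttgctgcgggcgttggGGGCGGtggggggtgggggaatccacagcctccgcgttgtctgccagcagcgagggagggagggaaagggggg
Col5a3: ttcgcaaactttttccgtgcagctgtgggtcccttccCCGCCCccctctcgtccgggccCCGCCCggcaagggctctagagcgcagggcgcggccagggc
Col8a1: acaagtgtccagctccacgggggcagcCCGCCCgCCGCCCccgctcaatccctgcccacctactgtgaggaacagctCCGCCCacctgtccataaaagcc
Col8a2: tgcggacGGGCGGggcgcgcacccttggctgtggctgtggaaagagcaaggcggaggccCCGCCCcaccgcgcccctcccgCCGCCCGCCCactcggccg

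The lung markers Sftpa1, Sftpb and Ager were at 1316 FPKM or more in every library. The surfactant gene Sftpc was listed at 0 in each of the 3 Fra-2tg libraries and at 25397 FPKM or more in WT. The surfactant genes Sftpa1 and Sftpb were at 1.70 and 1.47 times the WT mean in the same Fra-2tg libraries. The club cell gene Scgb1a1 was listed at 0 in Fra-2tg replicate 2 and WT replicate 1, and at 66105 FPKM or more in the other libraries. Whether these zeros are measured values was not tested, so they are not read as a loss of expression. Fosl2 was 12.3, 17.4 and 15.8 FPKM in Fra-2tg replicates 1 to 3 and 11.1, 13.9 and 11.2 FPKM in WT, a difference not past the test (limma adjusted p = 0.158), and the labels do not say whether its row counts transcripts of the transgene. Depth is unknown, since the table holds no counts. WT replicate 2 and Fra-2tg replicate 2 lay nearest to the other group for most collagens. WT replicate 2 held the highest WT value of all 19 chains called higher, and Fra-2tg replicate 2 the lowest Fra-2tg value of 16 of them. All 19 calls were kept when either of these libraries, or both, were left out. Because these libraries lay nearest to the other group, leaving them out widens most differences and tests the calls little. Leaving out replicate 1 or replicate 3 of either group instead kept 14 of the 19.

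Most of the collagen chains tested were higher in Fra-2tg lung. Of the 8 lower chains, 3 were transmembrane collagens and 1 was collagen VII, classes with no higher chain, and the other 4 came from classes that also held higher chains. With limma on log2(FPKM + 1) over all 14855 tested genes, 19 of the 31 chains were called higher and 8 lower at an adjusted p under 0.05, while 4 were not called. Of all tested genes 13.6% were called higher and 13.0% lower, in numbers 2027 and 1936, and with library sums equalised leaving out Sftpc and Scgb1a1 the split was 1151 and 3433. The groups did not overlap for 19 chains with Fra-2tg above and for 8 with Fra-2tg below, against 23.3% and 22.4% of all tested genes. The median log2 fold change was 0.66 over the 31 chains and 0.00 over all tested genes. Leaving out any 1 library kept 19 of the 27 calls, 14 higher and 5 lower. The other 8 were Col1a1, Col4a5, Col5a1, Col6a3 and Col16a1 among the higher chains and Col11a2, Col20a1 and Col27a1 among the lower ones. The first 5 of these also lost their call with no abundance filter, which adjusts over all 23284 genes (limma adjusted p = 0.0629 to 0.117), and with the equalised sums leaving out Sftpc and Scgb1a1 (0.0564 to 0.181). The other 3 lost theirs with plain equal sums (0.109 to 0.173).

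**Figure D1:**
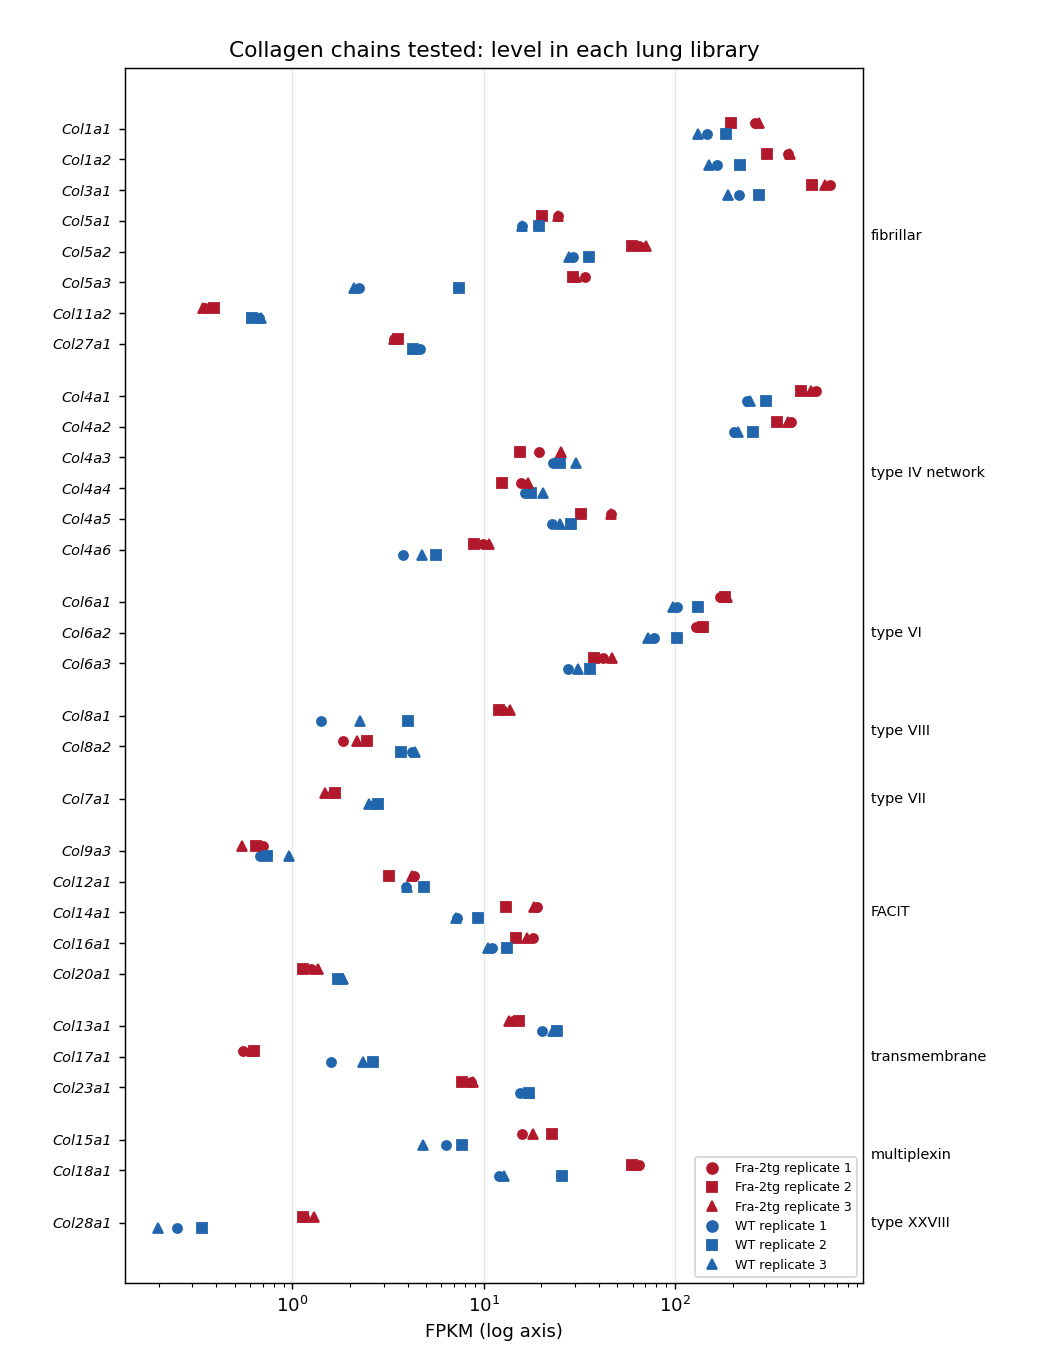
FPKM of the 31 tested collagen chains on a log axis, 1 point per library, Fra-2tg in red above WT in blue, chains grouped by class. The 3 chains of the transmembrane class lie lower in every Fra-2tg library than in any WT library, whereas the tested chains of collagen VI and the multiplexins lie higher.

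**Figure D2:**
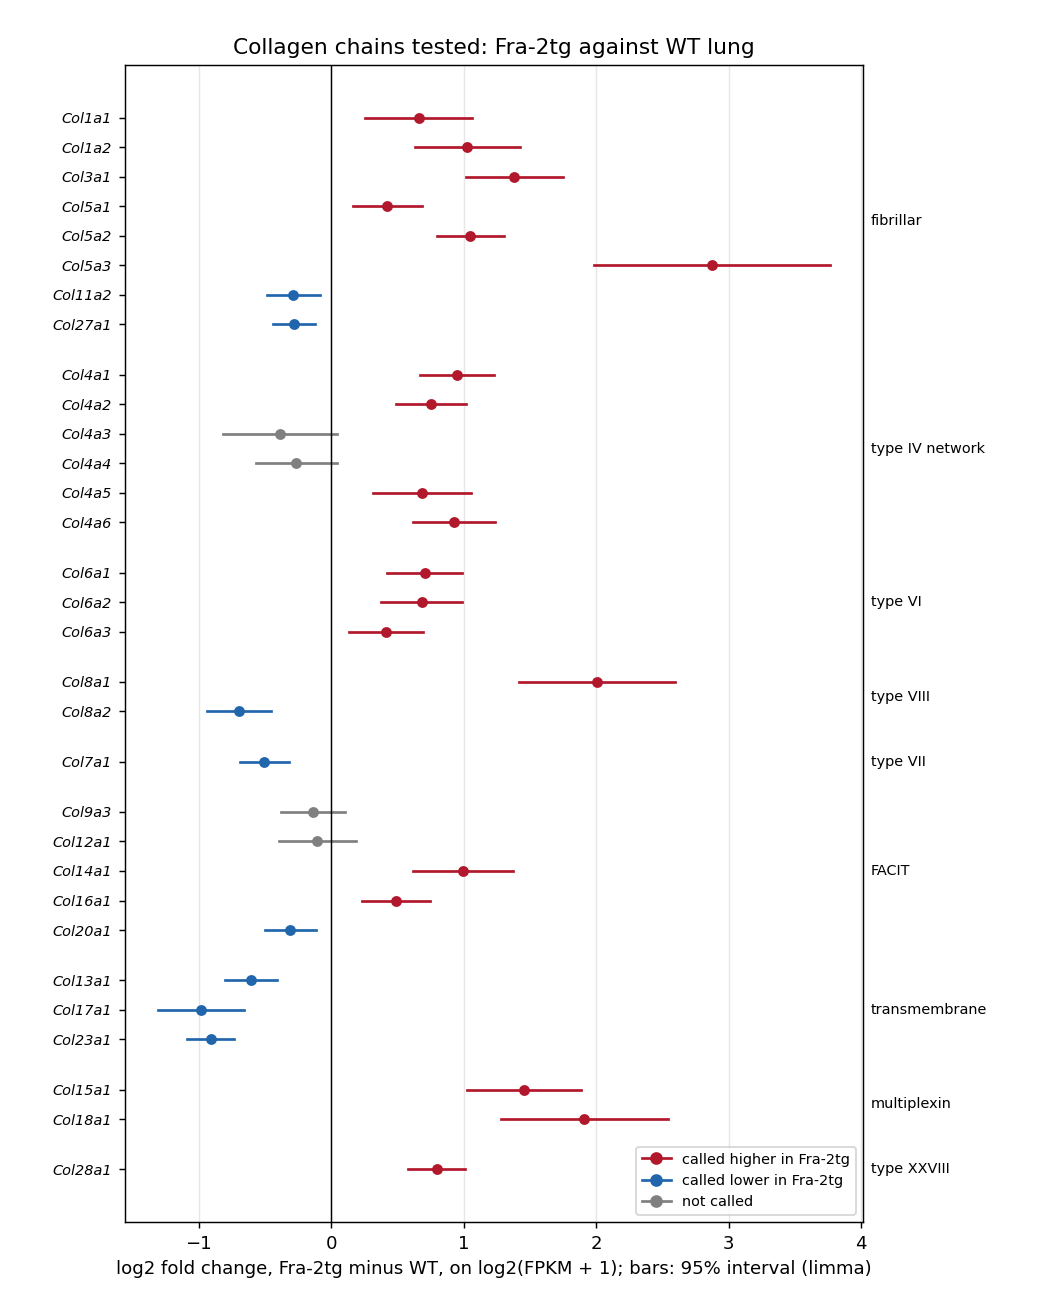
Log2 fold change of each tested chain, Fra-2tg minus WT, on the log2(FPKM + 1) scale, with its 95% interval from limma. Red chains were called higher (19), blue ones lower (8) and grey ones not called (4).

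Summed over all 43 chains, collagen FPKM was 2974, 2508 and 2952 in Fra-2tg replicates 1 to 3, against 1387, 1771 and 1361 in WT. The means were 2812 ± 263 in Fra-2tg and 1506 ± 229 in WT (SD, n = 3 each), a ratio of 1.87. The groups did not overlap. Leaving out Sftpc and Scgb1a1, collagen chains held 0.520%, 0.423% and 0.550% of a library's summed FPKM in Fra-2tg and 0.268%, 0.341% and 0.276% in WT. Just 7 chains, those of collagens I, III and VI (Col6a1 and Col6a2) with Col4a1 and Col4a2, made up 85.0% to 85.7% of the collagen sum in Fra-2tg and 81.1% to 83.1% in WT. The most abundant chain was Col3a1 in Fra-2tg, with a mean of 20.97% of the collagen sum, against 15.0% in WT, where Col4a1 led with 17.5% (18.0% in Fra-2tg). In bulk lung, fewer or more cells of a type and less or more RNA per cell cannot be told apart.

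**Figure D3:**
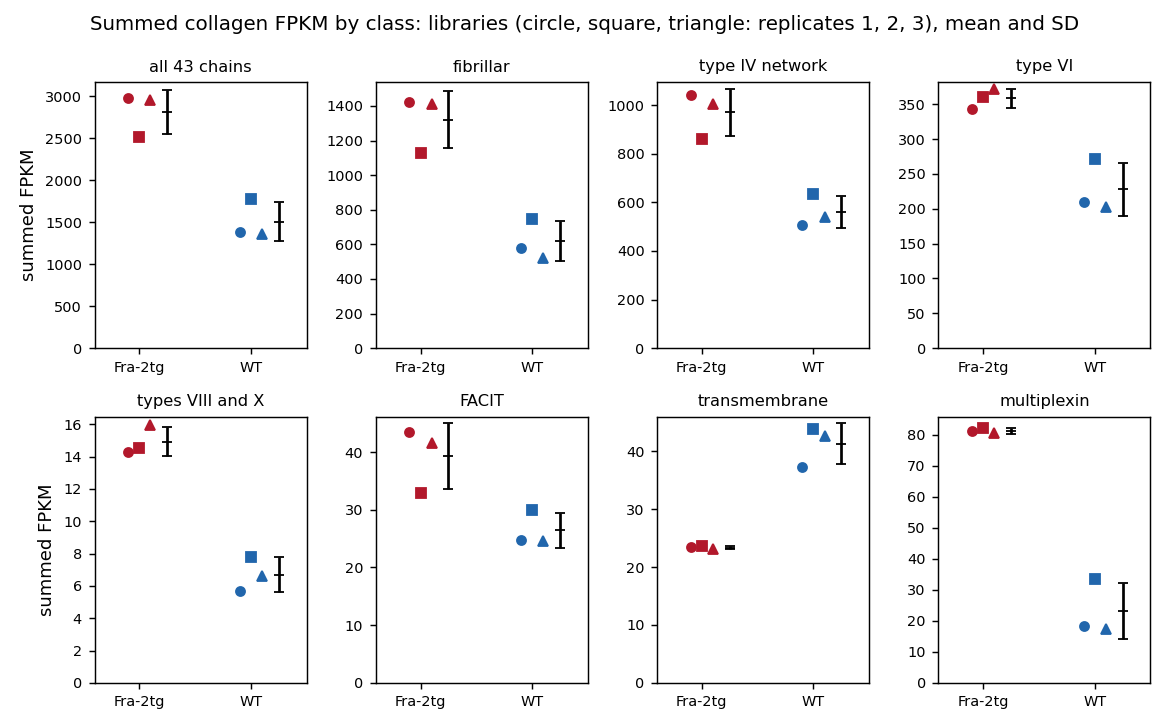
Summed FPKM of all 43 chains and of 7 collagen classes in each library, with the mean and SD of the 3 libraries at the side of each group; every axis starts at 0. Fibrillar sums are 1422, 1130 and 1413 in Fra-2tg and 582, 748 and 523 in WT, and the transmembrane class is the class plotted that lies lower in Fra-2tg.

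The major fibrillar collagens I and III were higher in Fra-2tg lung, collagen III by the larger fold. Col3a1, the chain of the collagen III homotrimer of elastic tissues such as lung and vessel wall, was 644, 518 and 608 FPKM in Fra-2tg replicates 1 to 3 and 216, 276 and 189.7 FPKM in WT. The lowest Fra-2tg library was well above the highest WT library. Its mean was 590.0 ± 64.8 FPKM in Fra-2tg and 227 ± 44.4 FPKM in WT (SD, n = 3 each). Col3a1 rose 2.59-fold, with a log2 fold change of 1.38 ± 0.15 (SE; limma adjusted p = 0.00215). Col1a2, the second chain of collagen I, was 388, 302 and 400.2 FPKM in Fra-2tg and 166, 219 and 151 FPKM in WT, a rise of 2.03-fold (log2 fold change 1.03 ± 0.17, limma adjusted p = 0.0064). Its partner Col1a1 was 263, 196 and 274 FPKM in Fra-2tg and 146, 185 and 132 FPKM in WT. Fra-2tg replicate 2 and WT replicate 2 came close to each other, yet the groups did not overlap. Col1a1 rose 1.58-fold (log2 fold change 0.66 ± 0.17, limma adjusted p = 0.0311). That call was lost without replicate 1 or 3 of either group (limma adjusted p = 0.0844 to 0.103).

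The chains of collagen I and III did not keep their proportions. The Col1a1 to Col1a2 ratio of FPKM was 0.680, 0.649 and 0.685 in Fra-2tg and 0.880, 0.848 and 0.873 in WT. Within each group it varied little, and the groups stood apart (log2 difference -0.37 ± 0.03, SE). Col3a1 to Col1a1 was 2.44, 2.64 and 2.22 in Fra-2tg, against 1.48, 1.49 and 1.44 in WT. With 3 libraries against 3, the exact two-sided permutation test cannot go below p = 0.1, and both ratios gave p = 0.1. Ratios are given in FPKM and do not depend on how a library was scaled, while log2 differences of ratios and their tests use FPKM + 1.

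Collagen V regulates the diameter of collagen I fibrils, and its 3 chains rose to very unequal extents. Col5a3 encodes a chain found in a minor collagen V trimer together with the other 2. It was 33.9, 29.3 and 30.4 FPKM in Fra-2tg and 2.22, 7.47 and 2.10 FPKM in WT. The Fra-2tg libraries lay close together, and WT replicate 2 stood above the other WT libraries. The mean was 31.2 ± 2.38 FPKM in Fra-2tg and 3.93 ± 3.07 FPKM in WT (SD, n = 3 each). Col5a3 rose 7.94-fold by group means, and 14.5-fold without WT replicate 2. On the log2 scale the change was 2.87 ± 0.37 (limma adjusted p = 0.00315), the largest among the 31 chains tested. Col5a2 was 64.7, 59.4 and 70.8 FPKM in Fra-2tg and 29.4, 35.5 and 27.9 FPKM in WT, and rose 2.10-fold (log2 fold change 1.05 ± 0.11, limma adjusted p = 0.00179). Col5a1, which supplies 2 chains of the main trimer, was 24.5, 20.3 and 24.5 FPKM in Fra-2tg and 15.8, 19.4 and 15.8 FPKM in WT. Its rise of 1.36-fold was called (log2 fold change 0.42 ± 0.11, limma adjusted p = 0.0314), but not without replicate 1 or 3 of either group (limma adjusted p = 0.0887 to 0.107).

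In WT lung Col5a3 was the least abundant chain of collagen V in every library, and in Fra-2tg lung it exceeded Col5a1 in every library. The Col5a3 to Col5a1 ratio was 1.38, 1.45 and 1.24 in Fra-2tg and 0.141, 0.386 and 0.133 in WT (log2 difference 2.45 ± 0.39, exact permutation p = 0.1). The Col5a1 to Col5a2 ratio moved the other way, at 0.379, 0.341 and 0.346 in Fra-2tg and 0.536, 0.546 and 0.564 in WT.

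Of the other fibrillar chains, Col27a1, a cartilage-associated fibrillar collagen, was 3.39, 3.57 and 3.40 FPKM in Fra-2tg and 4.63, 4.29 and 4.31 FPKM in WT. It was called lower (log2 fold change -0.28 ± 0.07, limma adjusted p = 0.0247), but the call was lost without any 1 library other than Fra-2tg replicate 2 (limma adjusted p = 0.0559 to 0.0815). Col11a2, a chain of cartilage collagen XI, was 0.350, 0.387 and 0.343 FPKM in Fra-2tg and 0.672, 0.616 and 0.684 FPKM in WT. It passed the abundance minimum through its WT values, and its call as lower (limma adjusted p = 0.0469) was lost without any 1 library (0.0569 to 0.105). The partner Col11a1 stayed at or below 0.0266 FPKM in all libraries.

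Collagen IV split into chains that rose and chains that did not. Col4a1 and Col4a2, the near-universal basement membrane pair with the overlapping start sites shown above, both rose. Col4a1 was 549, 453 and 515 FPKM in Fra-2tg and 238, 301 and 248 FPKM in WT, a rise of 1.93-fold (log2 fold change 0.95 ± 0.12, limma adjusted p = 0.00278). Col4a2 was 404, 339.6 and 389.8 FPKM in Fra-2tg and 204, 255 and 213 FPKM in WT, a rise of 1.69-fold (log2 fold change 0.75 ± 0.11, limma adjusted p = 0.00461). The proportion between the pair differed between the groups, with a Col4a1 to Col4a2 ratio of 1.36, 1.33 and 1.32 in Fra-2tg against 1.17, 1.18 and 1.16 in WT (log2 difference 0.19 ± 0.01, exact permutation p = 0.1).

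The alternative trimer of Col4a3, Col4a4 and Col4a5 is known from alveolar and kidney basement membranes. Col4a3 was 19.4, 15.4 and 25.3 FPKM in Fra-2tg and 22.9, 25.2 and 30.2 FPKM in WT, and Fra-2tg replicate 3 overlapped the WT range. On the log2 scale the change was -0.38 with a 95% interval from -0.81 to 0.05 (limma adjusted p = 0.161). Col4a4, its head-to-head neighbour, was 15.6, 12.5 and 17.01 FPKM in Fra-2tg and 16.4, 17.7 and 20.5 FPKM in WT, also overlapping. Its interval ran from -0.57 to 0.04 (limma adjusted p = 0.172). Col4a5 of the same trimer instead rose, at 46.5, 32.4 and 46.5 FPKM in Fra-2tg against 22.8, 28.6 and 24.9 FPKM in WT. The rise was 1.64-fold (log2 fold change 0.68 ± 0.15, limma adjusted p = 0.0202) and lost its call without replicate 1 or 3 of either group (limma adjusted p = 0.0611 to 0.0723). Col4a6, which joins Col4a5 in a further trimer with 2 chains of Col4a5, was 9.94, 8.88 and 10.6 FPKM in Fra-2tg and 3.79, 5.599 and 4.77 FPKM in WT. It rose 2.08-fold (log2 fold change 0.93 ± 0.13, limma adjusted p = 0.00386).

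Within the alternative trimer, the Col4a3 to Col4a5 ratio was 0.416, 0.476 and 0.544 in Fra-2tg and 1.00, 0.881 and 1.21 in WT (log2 difference -1.07 ± 0.17, exact permutation p = 0.1). In WT the 2 chains were at about the same level, and in each Fra-2tg library Col4a3 was the lower of them. Col4a3 to Col4a4 was 1.24, 1.23 and 1.49 in Fra-2tg and 1.40, 1.43 and 1.47 in WT, with the groups overlapping (exact permutation p = 0.4).

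Collagen VI takes 1 chain each from Col6a1, Col6a2 and Col6a3, and all of these rose. Col6a1 was 171, 182 and 188 FPKM in Fra-2tg and 103, 133 and 98.1 FPKM in WT (1.62-fold, log2 fold change 0.71 ± 0.12, limma adjusted p = 0.00713). Col6a2 was 129, 139.6 and 136 FPKM in Fra-2tg and 78.1, 103 and 72.6 FPKM in WT (1.60-fold, log2 fold change 0.68 ± 0.13, limma adjusted p = 0.0105). These neighbouring genes kept their proportion: Col6a1 to Col6a2 was 1.32, 1.31 and 1.38 in Fra-2tg and 1.31, 1.29 and 1.35 in WT, a log2 difference of 0.02 ± 0.03 (exact permutation p = 0.6). Col6a3, the long chain, was 42.2, 37.7 and 46.8 FPKM in Fra-2tg and 27.4, 36.0 and 31.3 FPKM in WT. Its rise of 1.34-fold (limma adjusted p = 0.0424) lost its call without replicate 1 or 3 of either group (0.101 to 0.118). The Col6a3 to Col6a1 ratio was 0.247, 0.207 and 0.249 in Fra-2tg and 0.267, 0.271 and 0.319 in WT.

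The alternative collagen VI chains Col6a4, Col6a5 and Col6a6 lie in a row on chromosome 9 and were too low to be tested. Col6a5 was 0.433, 0.461 and 0.393 FPKM in Fra-2tg and 0.152, 0.158 and 0.111 FPKM in WT. Its neighbour Col6a4 differed in the opposite sense, at 0.0703, 0.0473 and 0.101 FPKM in Fra-2tg and 0.529, 0.290 and 0.340 FPKM in WT. Neither had overlapping groups. With no abundance filter both were called (limma adjusted p = 0.00938 for Col6a5 and 0.0397 for Col6a4). Col6a6 stayed at or below 0.0877 FPKM.

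Collagen VIII is a network-forming collagen of vessel walls and corneal membrane, and its 2 chains moved in opposite directions. Col8a1 was 12.4, 12.1 and 13.7 FPKM in Fra-2tg and 1.42, 4.03 and 2.25 FPKM in WT. The lowest Fra-2tg library was far above the highest WT library. Col8a1 rose 4.96-fold (log2 fold change 2.01 ± 0.25, limma adjusted p = 0.00274). Col8a2 was 1.84, 2.45 and 2.17 FPKM in Fra-2tg and 4.23, 3.71 and 4.36 FPKM in WT, and fell to 0.526 of the WT mean (log2 fold change -0.69 ± 0.10, limma adjusted p = 0.0044). Col8a2 was the more abundant chain in WT replicates 1 and 3 and about level with Col8a1 in replicate 2. The Col8a1 to Col8a2 ratio was 6.74, 4.92 and 6.31 in Fra-2tg, against 0.335, 1.09 and 0.518 in WT (log2 difference 2.70 ± 0.37, exact permutation p = 0.1). The stretches before both start sites, shown above, hold GC box letters.

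The multiplexins, collagens XV and XVIII, sit in basement membranes, and the end of collagen XVIII is released as endostatin. Both rose. Col18a1 was 65.2, 59.4 and 62.4 FPKM in Fra-2tg and 11.996, 25.7 and 12.7 FPKM in WT. WT replicate 2 was the highest WT library by a wide margin but remained below every Fra-2tg library. Col18a1 rose 3.71-fold (log2 fold change 1.91 ± 0.26, limma adjusted p = 0.00379) and moved up to rank 9 among the 43 chains in Fra-2tg, against rank 15 in WT. Col15a1 was 15.9, 22.9 and 18.0 FPKM in Fra-2tg and 6.37, 7.73 and 4.80 FPKM in WT, a rise of 3.01-fold (log2 fold change 1.45 ± 0.18, limma adjusted p = 0.0028). Col28a1, of collagen XXVIII, a type with von Willebrand factor A domains, was 1.14, 1.13 and 1.29 FPKM in Fra-2tg and 0.250, 0.336 and 0.199 FPKM in WT. It passed the abundance minimum through its Fra-2tg values (4.54-fold by group means, log2 fold change 0.80 ± 0.09, limma adjusted p = 0.00235). The log2 value rests on the pseudocount at this level and was 2.17 with a pseudocount of 0.01 FPKM.

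Fibril-associated collagens (FACIT), which sit on the surface of fibrils, moved in both directions. Col14a1, a fibril-binding collagen, was 18.9, 13.1 and 18.4 FPKM in Fra-2tg and 7.25, 9.30 and 7.12 FPKM in WT (2.13-fold, log2 fold change 0.99 ± 0.16, limma adjusted p = 0.00616). Col16a1 was 18.2, 14.7 and 16.9 FPKM in Fra-2tg and 11.02, 13.2 and 10.4997 FPKM in WT (1.43-fold, limma adjusted p = 0.0189), a call lost without replicate 1 or 3 of either group (0.0573 to 0.0701). Col12a1, the close relative of Col14a1, was 4.30, 3.18 and 4.24 FPKM in Fra-2tg and 3.94, 4.85 and 3.99 FPKM in WT. Those groups overlapped, and the log2 fold change had an interval from -0.40 to 0.19 (limma adjusted p = 0.564). Col20a1 was 1.24, 1.13 and 1.36 FPKM in Fra-2tg and 1.77, 1.73 and 1.85 FPKM in WT and was called lower (log2 fold change -0.31 ± 0.08, limma adjusted p = 0.032). That call was lost without any 1 library other than Fra-2tg replicate 3 (0.0627 to 0.0907). Col9a3, of cartilage collagen IX, ranged from 0.543 to 0.698 FPKM in Fra-2tg and from 0.680 to 0.964 FPKM in WT and was not called (limma adjusted p = 0.355).

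All 3 tested transmembrane collagens fell in Fra-2tg lung, as did the anchoring fibril collagen VII. These calls were kept with each library left out. Col23a1 was 8.61, 7.74 and 8.82 FPKM in Fra-2tg and 15.5, 17.2 and 17.3 FPKM in WT, 0.504 times the WT mean (log2 fold change -0.91 ± 0.07, limma adjusted p = 0.00116). Its adjusted p was the smallest of the 31 chains. Col13a1, a collagen of cell adhesion sites and neuromuscular junctions, was 14.2, 15.2 and 13.6 FPKM in Fra-2tg and 20.1, 24.1 and 23.0 FPKM in WT (0.641 times WT, log2 fold change -0.61 ± 0.08, limma adjusted p = 0.00359). Col17a1, the hemidesmosome collagen that ties epithelial cells to their basement membrane, was 0.551, 0.628 and 0.612 FPKM in Fra-2tg and 1.60, 2.62 and 2.33 FPKM in WT. It fell to 0.273 of the WT mean (log2 fold change -0.98 ± 0.14, limma adjusted p = 0.00378). Col7a1, which forms anchoring fibrils beneath epithelia, was 1.62, 1.66 and 1.48 FPKM in Fra-2tg and 2.71, 2.79 and 2.52 FPKM in WT (0.595 times WT, log2 fold change -0.50 ± 0.08, limma adjusted p = 0.00527). Summed, the transmembrane class made up 0.788%, 0.941% and 0.781% of collagen FPKM in Fra-2tg and 2.68%, 2.48% and 3.14% in WT.

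The 12 chains below the abundance minimum were the 3 alternative collagen VI chains, Col2a1, Col11a1, Col24a1, Col10a1, Col9a1, Col9a2, Col19a1, Col22a1 and Col25a1. Groups overlapped for 7 of these 12. Fra-2tg lay above WT without overlap for 4 and below for 1, against 23.3% and 22.4% of all tested genes. Col2a1, the chain of cartilage collagen II, was at most 0.106 FPKM, and Col10a1, of hypertrophic cartilage, at most 0.0568 FPKM. Col24a1, a fibrillar collagen known from bone, was 0.227, 0.245 and 0.313 FPKM in Fra-2tg and 0.148, 0.0851 and 0.0865 FPKM in WT. With no abundance filter, 4 of the 12 were called: Col6a4 lower, and Col6a5, Col24a1 (limma adjusted p = 0.0401) and Col2a1 (0.0407) higher. Under that setting 1417 of all 23284 genes were called higher and 1521 lower. Col25a1 was at most 0.087 FPKM, Col22a1 0.146 FPKM, Col9a2 0.0441 FPKM, Col19a1 0.0186 FPKM and Col9a1 0.0136 FPKM in any library.

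Of the 17 chain ratios compared, 15 had groups that did not overlap (88.2%). Each had an exact permutation p of 0.1, the smallest these libraries allow, and 0.113 after Benjamini-Hochberg adjustment over the 17. Of single tested genes, 23.3% did not overlap with Fra-2tg above and 22.4% with Fra-2tg below. No share was computed for ratios of other gene pairs, so the count is no result particular to collagen partners. The 2 ratios that overlapped were Col6a1 to Col6a2 and Col4a3 to Col4a4, in both cases chains of the same trimer whose genes are neighbours. For the other neighbouring partners the groups did not overlap: Col4a1 to Col4a2, given above, and Col4a5 to Col4a6, which was 4.68, 3.65 and 4.39 in Fra-2tg and 6.02, 5.10 and 5.22 in WT. Ratios that share a chain are not independent of each other.

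**Figure D4:**
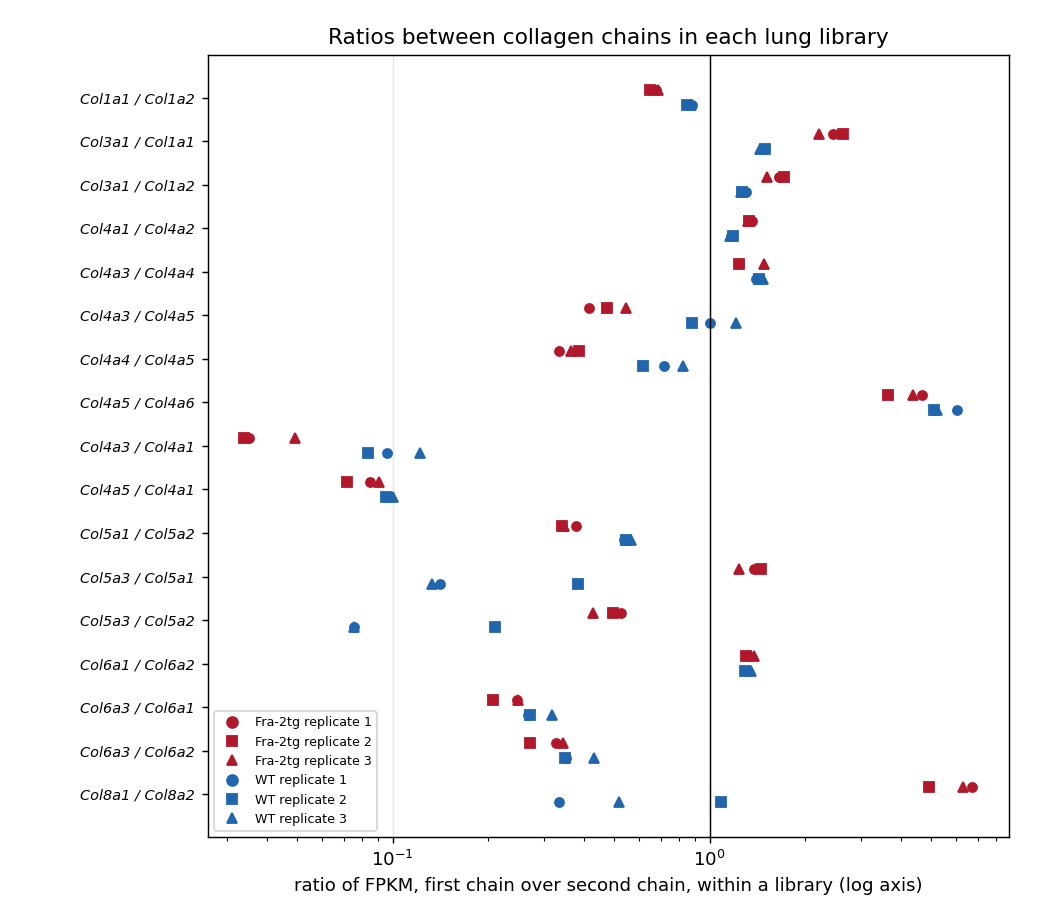
Ratio of FPKM between 2 chains within each library, on a log axis, Fra-2tg in red above WT in blue. The Col8a1 to Col8a2 ratio is 4.92 or more in Fra-2tg and 1.09 or less in WT, the Col5a3 to Col5a1 ratio crosses 1 between the groups, and Col6a1 to Col6a2 lies between 1.29 and 1.38 in all 6 libraries.

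The genes that modify, fold, trim and cross-link collagen moved in both directions. Of 29 tested genes of this machinery, 12 were called higher and 5 lower, and with library sums equalised leaving out Sftpc and Scgb1a1 8 were higher and 7 lower. Of all tested genes, 13.6% were called higher and 13.0% lower, and under the second scaling lower calls outnumbered higher ones over all genes too. The counts of lower calls lie near those shares and are no result about this list. Among the most abundant, Sparc, a matricellular collagen chaperone, rose 1.87-fold (limma adjusted p = 0.00376), Serpinh1, the collagen chaperone Hsp47, 1.45-fold (0.00808) and P4hb, the shared subunit of prolyl 4-hydroxylase, 1.26-fold (0.019). The 3 smallest adjusted p-values belonged to genes that fell. The lysyl hydroxylase Plod2 was at 0.543, the procollagen proteinase enhancer Pcolce2 at 0.451 and the collagen galactosyltransferase Glt25d2 at 0.436 times WT (limma adjusted p = 0.0011, 0.00116 and 0.00176).

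Of all tested genes, 26.7% were called in either direction, and the counts for receptors and for basement membrane partners lie near that share and are no result about those lists. Of 9 tested collagen receptors, 1 was called higher and 2 lower. Lair1, an inhibitory collagen receptor of leukocytes, rose 1.27-fold, while the integrin chain Itga1 and the collagen uptake receptor Mrc2 were at 0.731 and 0.758 times WT (limma adjusted p = 0.0466, 0.0191 and 0.0362). Of 6 tested genes of collagen breakdown, 3 were higher and 1 lower. The lysosomal collagenase cathepsin K (Ctsk) rose 3.30-fold, the gelatinase Mmp2 2.67-fold and Mmp14, which activates Mmp2, 1.47-fold (limma adjusted p = 0.00306, 0.00205 and 0.00713). The gelatinase Mmp9 was the lower one, at 0.681 times WT (0.0482). Among 14 tested laminins and other partners of collagen IV in basement membranes, 3 were higher and 2 lower. The laminin chains Lama5 and Lamc1 rose 1.36-fold and 1.37-fold (limma adjusted p = 0.00856 and 0.0168). Of 9 fibril partners 4 were higher and 4 lower, with elastin (Eln) up 3.13-fold and the fibril-binding proteoglycans Dcn and Fmod at 0.573 and 0.687 times WT (limma adjusted p = 0.00225, 0.00328 and 0.00806). Bgn, the most abundant proteoglycan of the list, was 791, 721 and 758 FPKM in Fra-2tg and 495, 575 and 458 FPKM in WT and rose 1.49-fold (limma adjusted p = 0.00931).

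Marker genes of several cell types and neighbouring tissues also differed between the groups. Among 7 alveolar and airway markers 2 were called higher and 2 lower, with Hopx of alveolar cells at 0.610 times WT (limma adjusted p = 0.00215). The other lower call is Sftpc, whose listed zeros in Fra-2tg carry the caution given above. Of 7 fibroblast markers, 2 were called higher and 3 lower, and their summed FPKM was 332 to 358 in Fra-2tg and 271 to 300.3 in WT. The higher sum rests on Dpt, at 191 to 213 FPKM in Fra-2tg and 93.2 to 118 FPKM in WT. Dpt rose 1.95-fold, and Pdgfra and Pi16 were at 0.557 and 0.644 times WT (limma adjusted p = 0.00172, 0.00216 and 0.00158). Smooth muscle and pericyte markers summed to 274 to 307 FPKM in Fra-2tg and 354 to 402 FPKM in WT, with 3 of 6 called lower. Heart muscle markers summed to 50.6 to 99.3 FPKM in Fra-2tg and 149 to 268 FPKM in WT (4 of 5 lower), and fat markers to 4.01 to 4.23 and 11.01 to 15.6 FPKM (3 of 3 tested lower). The fat gene Plin1 passed the abundance minimum through its WT values, with means of 0.317 FPKM in Fra-2tg and 1.41 FPKM in WT. Endothelial markers summed to 701 to 735 FPKM in Fra-2tg and 815 to 904 FPKM in WT (2 of 4 lower), and mesothelial markers to 85.3 to 97.9 and 45.3 to 88.7 FPKM (1 of 4 higher). The mesothelial sum rests on Msln, at 65.9 to 80.1 FPKM in Fra-2tg and 25.8 to 57.4 FPKM in WT. The other mesothelial markers had negative log2 fold changes and were not called. Skeletal muscle markers summed to 5.92 to 9.92 FPKM in Fra-2tg and 10.97 to 16.1 FPKM in WT (2 of 3 tested lower). The lower sum rests mainly on Ckm, with means of 3.32 FPKM in Fra-2tg and 8.63 FPKM in WT. Acta1, Myh1 and Myh2, below the abundance minimum, went the other way, higher in every Fra-2tg library than in any WT library. Their means in Fra-2tg were 0.661, 0.164 and 0.0238 FPKM, at 5.79, 3.38 and 3.01 times WT. Lymph node markers summed to 52.3 to 62.8 FPKM in Fra-2tg and 51.8 to 121 FPKM in WT (1 of 4 lower). In WT replicate 1 alone the lymph node gene Glycam1 reached 40.4 FPKM. The mesothelial and lymph node counts lie near the 26.7% of all tested genes called and are no result about those lists. Of the cartilage markers, Ucma and Epyc were at 0 in every library and Acan, Matn1 and Lect1 at or below 0.0664 FPKM. The list summed to 66.1 to 78.8 FPKM in Fra-2tg and 67.9 to 80.8 FPKM in WT, led by Matn4 and Chad, and of 3 tested members Sox9 was higher and Chad lower. Sox9 passed the abundance minimum through its Fra-2tg values, with means of 2.24 FPKM in Fra-2tg and 0.345 FPKM in WT. The part of these cell types in the collagen differences was not tested.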

How the data were processed

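Poly(A) RNA of 6 lungs was sequenced with a stranded kit, per the labels' protocols. The submitters' processing notes name TopHat2 2.0.10, Bowtie 1.0.0, Cufflinks 2.2.1 and SAMtools 0.1.19 beside FastQC, and the build GRCm38 (mm10), with no settings. The deposited table holds the authors' FPKM, 1 column per mouse. It gives no counts, so depth is unknown and no count model was used. How fragments shared by paralogous or overlapping genes were split is not stated, so close paralogs and the overlapping Col4a1 and Col4a2 are uncertain.

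A mean of 0.5 FPKM over the 6 libraries was required for testing, which 14855 genes reached. Values were tested as log2(FPKM + 1) in limma 3.58.1 (R 4.3.3) with a variance trend, two-sided, and adjusted by Benjamini-Hochberg over these genes. Fold changes on this scale are understated for low genes. Folds and multiples of WT are ratios of group mean FPKM. Chain ratios were tested with exact two-sided permutation (SciPy 1.17.1). The procedure was tested on simulated data. Every collagen row was described; of the other lists, up to 3 called genes with the smallest adjusted p and up to 3 most abundant ones were named, except 1 gene that is not reported here. Members and lists were chosen with earlier results of these data known. Positions come from GENCODE, promoters from RefSeq. Alternatives covered pseudocounts, filters, scalings, variance models, a replicate block and each library left out.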

Additional observations from a re-analysis of the deposited data

How the results depend on the processing

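Of the 19 chains called higher, 14 to 19 were called with a library left out, and of the 8 called lower, 5 to 6. The count of lower calls was 2 with a filter at 5 FPKM, which tests 22 chains, and 5 with equal library sums, with the replicate number as a block, and without both replicates 2 (chosen after seeing the data). For these last 3 the cause was not tested. The labels do not say which mice share a litter, so the block is not a known pairing. Deviations of same-numbered libraries correlated at -0.05, 0.01 and 0.16, which cannot exclude a pairing in another order. Under the block 14 chains were higher and 5 lower. The Col12a1 log2 fold change turned to 0.0075 without Fra-2tg replicate 2 and to 0.087 without both replicates 2, within a range of -0.16 to 0.0075 with a library left out. The Col6a1 to Col6a2 log2 difference turned to -0.0026 without Fra-2tg replicate 3, within a range of -0.0026 to 0.039. None of these passed its test. Over all genes, 1072 to 1680 were called higher and 1132 to 1666 lower with a library left out, 1132 higher and 1169 lower with equal library sums, and 1236 higher without both replicates 2. Equal sums leaving out Sftpc and Scgb1a1 (chosen after seeing the data) gave 1151 higher and 3433 lower. That scaling moved the median of all genes to -0.13, with the collagen median 0.64 above it, and 14 chains were higher and 8 lower. The 8 of 31 chains lie near the 3433 of 14855 genes called lower under it and are no result particular to collagen. Lower machinery calls were 3 with equal sums and 4 to 5 with a library left out. Depth is unknown, so chains near 0.5 FPKM carry an error that cannot be stated.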
